A study of Mus musculus with 12 samples.

Results

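The 10 genes followed here in mouse skin by RNA-Seq belong to the NF-kB system. They are the subunit genes Nfkb1, Nfkb2, Rela and Relb, and the inhibitor and feedback genes Nfkbia, Nfkbie, Nfkbiz, Bcl3, Tnfaip3 and Birc3. These genes were chosen by symbol, and all 10 of 10 were found among the 55453 genes counted. All 10 also passed the filter on low counts, which 18311 genes passed. The skin came from 12 female mice of the C57/BL6 strain, 8 to 12 weeks old, with 3 mice in each of 4 groups. WT mice received PBS (WT PBS) or bleomycin (WT BLM), and Thy1-knockout mice, which lack Thy-1 in all cells rather than in 1 cell type, received PBS (KO PBS) or bleomycin (KO BLM). The labels give 21 days of treatment and the study's methods give injections of 10 mg/kg per day for up to 14 days with harvest on day 21. Bleomycin is a drug that injures the skin where it is injected and leads to fibrosis. Thy-1 (CD90) is a surface protein of fibroblasts and of T cells.

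NF-kB is a family of dimeric transcription factors. In resting cells the dimers are held in the cytoplasm by IkB proteins, and signals from TNF, IL-1 and Toll-like receptors lead the IKK kinases to mark IkB for destruction, which frees the dimers (the canonical route). A slower route through CD40, the lymphotoxin beta receptor and the kinase NIK leads to processing of p100, the product of Nfkb2, and frees dimers with RelB. Many inhibitors are themselves NF-kB targets, so that the pathway limits itself, and in skin it is known for its part in inflammation and in keeping the epidermis in order.

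A kB motif was looked for in the promoter windows of RefSeq on GRCm38.p6 (250 bases before to 50 after the start of a gene), which were given for 7 of the 10 genes in 10 windows and not for Nfkb1, Relb and Nfkbiz. The broad motif (GGG, any 5 bases, CC, or its other strand) was found in all 7 genes with a window, but also in 53.5% of all genes with a window and in 50.8% of all 32851 windows. A narrower consensus, chosen after the broad one (GGG, a purine, any base, A or T, a pair of pyrimidines, CC, or its other strand; every match is also a match of the broad motif), was found in 5 of the 7 genes, against 5.14% of all genes with a window and 4.51% of all windows. Matches from the most upstream window of each gene are printed because these genes are textbook targets of NF-kB. Those at -38 of Nfkb2, which overlaps its first line, and at -125 of Tnfaip3, and those in the other Nfkb2 windows, are not printed. Each line gives 30 bases, 5′ to 3′ on the strand of the gene, with the motif in capitals, and positions are counted from the start, with base 1 the first transcribed base. The first window is the most upstream where a gene has several.

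Nfkb2, from base -39 of its first window, chr19:46304688-46304717 (+): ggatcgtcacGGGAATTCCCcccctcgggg
Nfkb2, from base -11 of the same window, chr19:46304716-46304745 (+): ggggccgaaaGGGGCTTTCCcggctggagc
Nfkbia, from base -29, chr12:55492657-55492686 (-): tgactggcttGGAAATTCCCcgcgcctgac
Nfkbie, from base -106, chr17:45555584-45555613 (+): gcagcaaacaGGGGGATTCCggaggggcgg
Tnfaip3, from base -12 of its first window, chr10:19015403-19015432 (-): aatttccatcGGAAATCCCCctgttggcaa
Bcl3, from base 3 of the transcribed part, chr7:19822734-19822763 (-): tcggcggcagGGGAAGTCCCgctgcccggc

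The windows of Rela and Birc3 held no match to the narrower consensus. A match is a description of letters and does not show that NF-kB was bound there.

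Library totals ran from 26473700 to 38890450 counts, and single members had between 171 and 5002 counts in a library. Levels are given as TMM-normalized CPM, which are counts scaled to a common library size. In 5 libraries genes of growing hair stood far above the rest: the 3 WT PBS mice, KO PBS mouse 136 and KO BLM mouse 141 had a mean of 8.79 to 9.82 log2 CPM over 29 hair genes, against -0.25 to 6.01 in the other 7 libraries. All WT PBS and no WT BLM libraries were high, so that hair growth and treatment cannot be told apart in WT skin, and the KO groups each hold 1 high library. Summed macrophage markers (15 genes) ran from 481 to 1115 CPM in WT PBS, from 2604 to 3836 in WT BLM, from 509 to 2470 in KO PBS and from 1776 to 2524 in KO BLM libraries. The targeted gene, Thy1, was still counted in the KO groups, at 45.6 to 96.9 CPM in KO PBS against 104 to 149.6 in WT PBS mice, and at 84.7 to 128 in KO BLM against 231 to 416 in WT BLM mice. Neither pair of groups overlapped, and neither difference passed the threshold (log2 fold changes of -0.75 and -1.69; edgeR adjusted p = 0.224 and 0.112). The labels do not give the deleted part of the gene, so reads outside it cannot be told from expression. Keratin and collagen markers of skin were detected in all 12 libraries.

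In WT skin, 7 of the 10 genes rose after bleomycin: Nfkbie, Bcl3, Relb, Birc3, Nfkb2, Nfkbiz and Nfkb1, from 3.37-fold (Nfkbie) to 1.47-fold (Nfkb1). No member fell. Of all genes tested 34% passed the threshold in this comparison, and 19.8% of all genes tested passed it upward (edgeR's quasi-likelihood test, Benjamini-Hochberg adjusted p under 0.05). The median log2 fold change of the 10 genes was 0.86, against 0.018 over all genes tested. For 8 of the 10 genes every WT BLM mouse lay above every WT PBS mouse, against 28.3% of all genes.

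Of the subunits, Relb, the partner of p52 in the slower route, changed most. Relb stood at 18.2, 14.1 and 14.7 CPM in the WT PBS mice and at 32.8, 29.7 and 44.6 CPM in the WT BLM mice. It was higher in 3 of 3 bleomycin-treated mice, by 1.19 ± 0.28 on the log2 scale (SE, n = 3 and 3; edgeR adjusted p = 0.0136). Nfkb2, which encodes p100 and p52, was at 44.4, 39.05 and 35.1 CPM in WT PBS skin. Its WT BLM values of 69.5, 66.9 and 86.3 CPM did not overlap with these, a rise of 0.91 ± 0.20 (SE; edgeR adjusted p = 0.0111). Nfkb2 shares 299 exonic bases (6.52% of its exons) with Psd on the other strand, which had 1481 counts in all against 20472 for Nfkb2, and the use of strand in the counting was not given in the sources used here.

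Nfkb1, which encodes p105 and p50, changed less but with little spread among the controls. It was at 100.5, 98.7 and 98.4 CPM in WT PBS and at 147, 125 and 164 CPM in WT BLM mice. The rise of 0.55 ± 0.14 log2 units passed the threshold (SE; edgeR adjusted p = 0.0185). Rela, which encodes p65, the main activating subunit, was at 75.4, 75.1 and 72.3 CPM in WT PBS mice and at 88.7, 81.9 and 115 CPM in WT BLM mice. These groups did not overlap either, but the difference of 0.36 ± 0.13 did not pass the threshold (SE; edgeR adjusted p = 0.060, 95% interval 0.062 to 0.65). Rela was called in 3 of 20 alternative fits. These were the fit without WT BLM mouse 146, that without both KO libraries high in hair genes, and that of genes averaging 1 CPM or more.

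**Figure D1:**
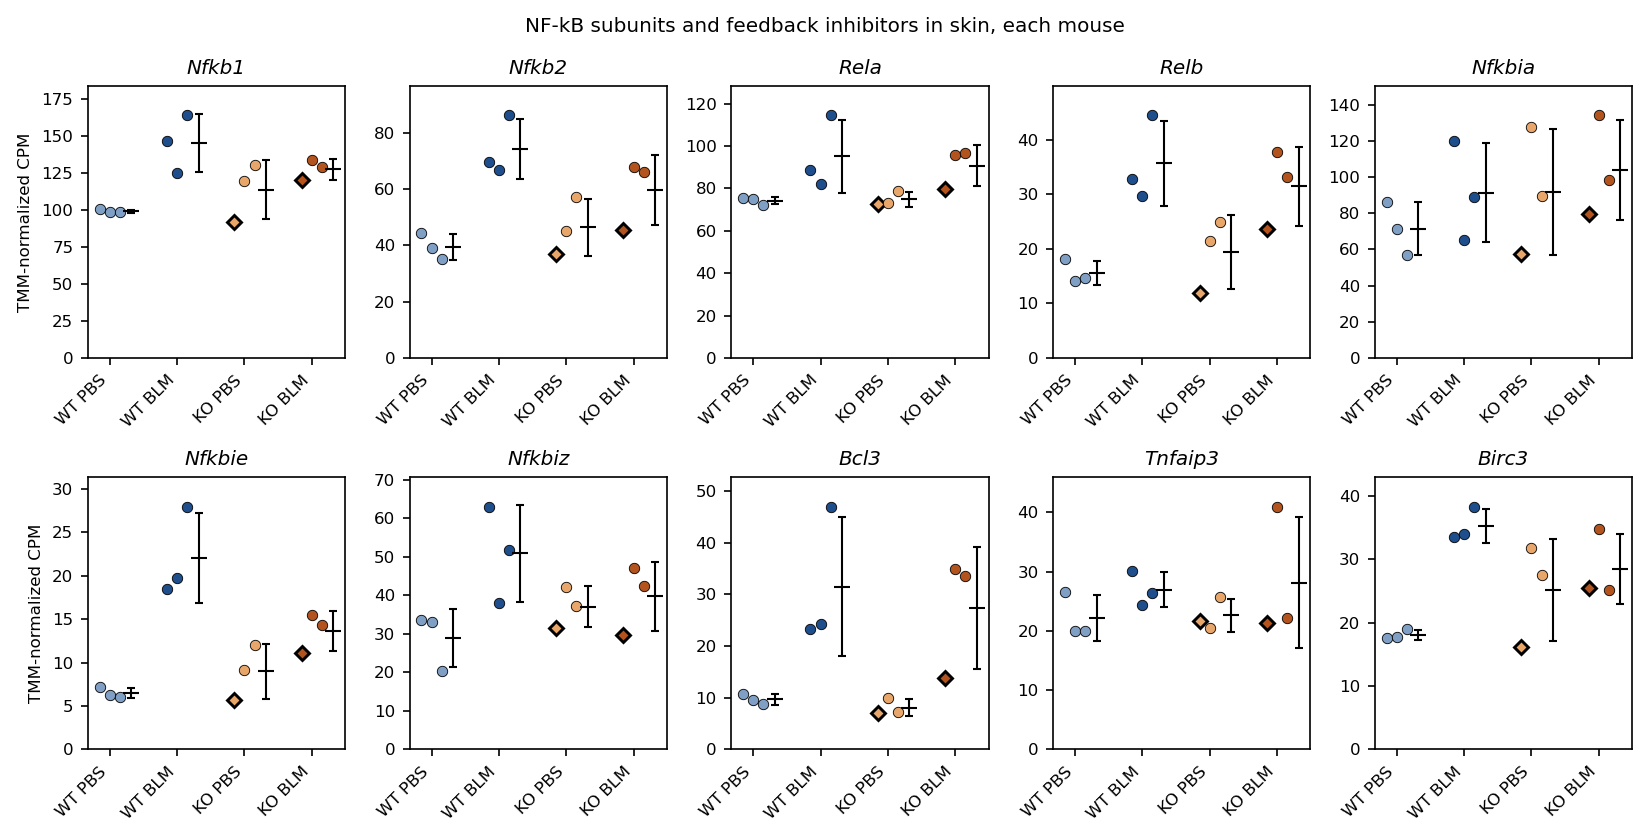
TMM-normalized CPM (vertical axes from 0) of the 10 genes in each mouse of the 4 groups, with the mean and SD beside the points and the KO libraries high in hair genes drawn as outlined diamonds. WT BLM points lie above all WT PBS points in 8 panels, with Nfkbia and Tnfaip3 the exceptions, and the diamonds are the lowest of their group in 9 of 10 panels in each KO group.

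Among the inhibitors, Nfkbie, the gene of IkB epsilon, changed most. Its WT PBS values were 7.20, 6.32 and 6.09 CPM and its WT BLM values 18.4, 19.7 and 27.9 CPM. The highest control was far below the lowest treated mouse, and the log2 fold change was 1.75 ± 0.27 (SE; edgeR adjusted p = 0.0044). Bcl3, a nuclear IkB protein that binds p50 and p52 dimers, stood at 10.8, 9.54 and 8.74 CPM in WT PBS mice and at 23.3, 24.3 and 47.0 CPM in WT BLM mice. The third of these, mouse 147, was well above the other 2, and the change was 1.703 ± 0.37 (SE; edgeR adjusted p = 0.0104). Both genes were called in all 12 fits that left out 1 mouse each. Over the same 12 fits Nfkb2 was called in 11, Relb and Birc3 in 10 each, Nfkb1 in 8 and Nfkbiz in 7.

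Nfkbiz encodes another nuclear IkB protein, which is known in keratinocytes as a cofactor of IL-17 responses. It was at 33.5, 33.0 and 20.4 CPM in WT PBS and at 63.0, 37.9 and 51.7 CPM in WT BLM mice, which was 0.81 ± 0.25 higher on the log2 scale (SE; edgeR adjusted p = 0.0342). Birc3, the gene of the ubiquitin ligase cIAP2, was at 17.5, 17.7 and 19.0 CPM in WT PBS and at 33.6, 34.0 and 38.3 CPM in WT BLM mice. The groups were tight and well apart, with a rise of 0.96 ± 0.22 (SE; edgeR adjusted p = 0.0129).

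Neither of the best known feedback inhibitors, Nfkbia and Tnfaip3, passed the test. Nfkbia, the gene of IkB alpha, was at 86.1, 71.1 and 56.8 CPM in WT PBS and at 119.8, 65.2 and 88.7 CPM in WT BLM mice. The groups overlapped, and the difference was 0.36 with a 95% interval of -0.35 to 1.06 (edgeR adjusted p = 0.396). Tnfaip3, the gene of the ubiquitin-editing enzyme A20, was at 26.6, 19.9 and 19.9 CPM in WT PBS and at 30.1, 24.4 and 26.4 CPM in WT BLM mice, a difference of 0.28 with an interval of -0.26 to 0.82 (edgeR adjusted p = 0.380). Changes of up to those upper bounds are thus within the range these mice allow. A test of whether Nfkbia or Tnfaip3 responded less than Nfkbie or Bcl3 was not made.

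The WT result rests on few mice, controls among them. Without WT PBS mouse 160 only Nfkbie (adjusted p = 0.0308) and Bcl3 (adjusted p = 0.0455) were called, 2 of 10, while the log2 fold changes of the other 5 stayed between 0.47 and 1.04. Without mouse 159 or mouse 161 there were 4 calls each. The shares of all genes called in these fits are not given here, so a loss of calls among the members cannot be told from a general one. With the mean of the hair genes as a covariate 0 of 10 members were called (2 at an unadjusted p under 0.05, Nfkbia and Nfkbie), and 0.0765% of all genes (14). The log2 fold changes of Nfkbie and Bcl3 were then 0.996 and 0.97, that of Nfkb2 was 0.43, and that of Nfkbia turned to -0.71. Most macrophage markers moved with the members: 13 of 15 were called higher in WT skin and 0 lower, with a median log2 fold change of 2.2. None was at 0 in any group. Cd163 went the other way, with an estimate of -1.24 that did not pass (edgeR adjusted p = 0.117), and is named after its value was seen. T cell markers rose too, 8 of 10 with a median of 1.39, as did 11 of 12 skeletal muscle genes. Of 6 neutrophil markers tested, 4 were called higher and 1 lower, with a median of 2.94. Called higher were also 4 of 8 endothelial, 5 of 12 epidermis and dermis, 2 of 5 B cell and 0 of 8 adipocyte markers, against 19.8% of all genes. The part of these lists in the result was not tested. In bulk skin, more cells of a type that expresses a gene and more RNA of that gene per cell cannot be told apart.

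In KO skin, 0 of the 10 genes passed the threshold after bleomycin with edgeR, and 3 had an unadjusted p under 0.05 (Bcl3, Relb and Nfkbie), against 20% of all genes. At the adjusted threshold 0.306% of all genes tested passed in KO skin. All 10 estimates were above 0, with a median log2 fold change of 0.30, against -0.0070 over all genes. With DESeq2, which called 6.14% of the genes it tested in KO skin and 34.2% in WT skin, 1 of the 10 was called in KO skin (Bcl3) and 7 of 10 in WT skin.

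Bcl3 was the gene with the largest change in KO skin. It was at 6.98, 9.94 and 7.18 CPM in KO PBS mice and at 13.8, 34.8 and 33.5 CPM in KO BLM mice. The groups did not overlap, with mouse 141 the lowest of the treated mice, and the log2 fold change of 1.77 ± 0.37 was close to that in WT skin (SE; edgeR adjusted p = 0.0755). It passed the threshold with DESeq2 (adjusted p = 0.000589), without mouse 136 (0.0348) and without mouse 141 (0.0165), and without both it was 1.99 (0.00961). Rela was the other member whose KO groups did not overlap, at 72.5, 73.3 and 78.7 CPM in KO PBS and 79.9, 95.5 and 96.9 CPM in KO BLM mice. Its difference was 0.28 (95% interval -0.015 to 0.57; edgeR adjusted p = 0.268). That made 2 of 10 members without overlap upward, against 10.8% of all genes.

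Relb was at 11.9, 21.4 and 25.0 CPM in KO PBS and at 23.6, 37.8 and 33.2 CPM in KO BLM mice. The lowest treated mouse lay below the highest control, and the difference was 0.70 (interval 0.083 to 1.32; edgeR adjusted p = 0.204). Nfkbie was at 5.68, 9.17 and 12.1 CPM in KO PBS and at 11.1, 15.5 and 14.3 CPM in KO BLM mice, a difference of 0.60 (interval 0.011 to 1.19; edgeR adjusted p = 0.243). For the remaining 6 genes the estimates ran from 0.10 (Nfkbiz) to 0.36 (Nfkb2), all with intervals that include 0. Nfkb2 was at 37.0, 44.9 and 57.3 CPM in KO PBS and at 45.4, 67.7 and 65.99 CPM in KO BLM mice, and Nfkb1 at 91.8, 119 and 130.1 against 119.95, 134 and 129 CPM. Birc3 was at 16.2, 31.7 and 27.6 CPM in KO PBS and at 25.6, 34.8 and 25.1 CPM in KO BLM mice.

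The values of the other 3 feedback genes in KO skin overlapped between the groups. Nfkbia ran from 57.7 to 127 CPM in KO PBS and from 79.8 to 134 CPM in KO BLM mice. Tnfaip3 was at 21.7, 20.4 and 25.8 CPM in KO PBS and at 21.3, 40.9 and 22.2 CPM in KO BLM mice, so that 1 mouse, number 143, carried its higher mean. Nfkbiz stood at 31.5, 42.2 and 37.3 CPM in KO PBS and at 29.8, 47.1 and 42.4 CPM in KO BLM mice.

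The KO libraries high in hair genes stood at the low end of their groups. Mouse 136 was the lowest of its group for 9 of 10 members, with Tnfaip3 the exception, and mouse 141 for 9 of 10, with Birc3 the exception. Mouse 136 also was the lowest of all 12 mice for 5 members. The same mouse had the lowest macrophage sum of its group (509 CPM, against 1918 and 2470). Of the macrophage markers 0 of 15 were called in KO skin, with a median log2 fold change of 0.58. Estimates were above 0 for 12 of them, and the lowest was -3.07. Mean Cd163 went from 95.5 CPM in KO PBS to 11.4 CPM in KO BLM skin. With the hair genes as a covariate Bcl3, Relb and Nfkbie were called in KO skin (3 of 10, against 9.44% of all genes), with log2 fold changes of 1.95, 1.02 and 0.87. Without mouse 136, 14% of all genes were called in KO skin, and 1 member (Bcl3). Without both libraries 22.3% of all genes were called there, again with Bcl3 as the 1 member called.

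**Figure D2:**
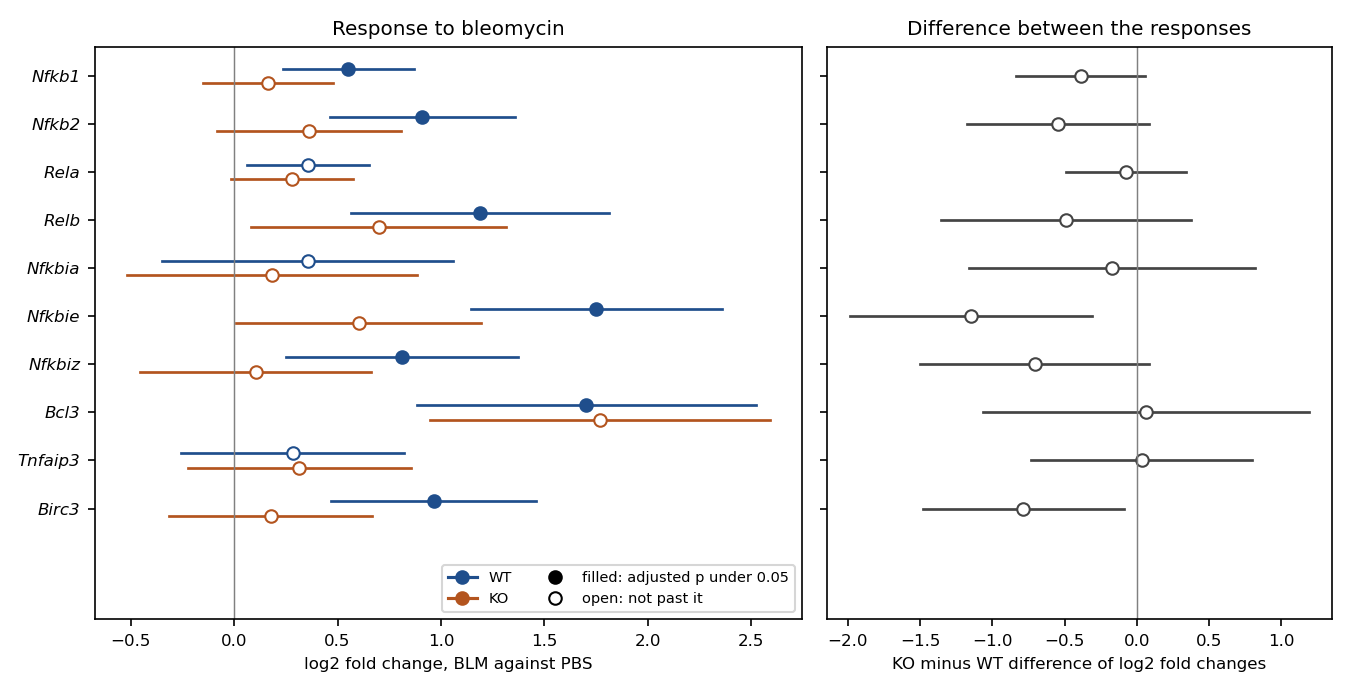
Log2 fold changes of bleomycin against PBS in WT and KO skin (left) and their difference, KO minus WT (right), for the 10 genes; lines are 95% intervals from the edgeR fit and filled points passed the adjusted threshold. Filled points occur for 7 genes in WT skin and for 0 in KO skin, and the differences of Nfkbie and Birc3 have intervals below 0.

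Whether the genotypes responded differently was tested directly. With edgeR 0 of 10 members were called for the difference between the bleomycin responses, and 2 had an unadjusted p under 0.05, a smaller share than the 31.1% of all genes. Of all genes tested 0% were called. Nfkbie had the largest difference, -1.15 ± 0.38 log2 units (SE; interval -1.99 to -0.31; edgeR adjusted p = 0.0937). For Birc3 the difference was -0.79 ± 0.31 (SE; interval -1.48 to -0.091; edgeR adjusted p = 0.128). For Nfkbiz it was -0.71 and for Nfkb2 -0.55, with intervals that just include 0. Bcl3 (0.064, interval -1.06 to 1.19) and Tnfaip3 (0.033, interval -0.73 to 0.80) were the genes with estimates above 0, and their intervals are too wide to call the responses alike.

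The calls of this test changed with the libraries high in hair genes. DESeq2 called Nfkbie (adjusted p = 0.0352), where 18.5% of all genes passed. Without mouse 136 Nfkbie (-1.39), Birc3 (-1.02) and Nfkb1 (-0.52) were called, with 39.9% of all genes. Without both libraries Nfkbie (-1.26) and Birc3 (-0.95) were called, with 38.6% of all genes, while the WT response then had 8 members called among 49% of all genes. Leaving out those libraries leaves KO PBS mice at 103 and 415 summed CPM of hair genes, and KO BLM mice at 3932 and 6599. WT PBS mice had 52767 to 75955 CPM and WT BLM mice 128 to 920. The difference of the responses then includes a difference in hair. It does so with all 12 libraries as well, where the 29 hair genes had a median difference of 6.74, with 29 above 0 and 0 called. With hair as a covariate the difference of Nfkbie was -0.13 and that of Birc3 0.24, both far from the threshold. The slope of that fit rests mainly on KO mice, so these values do not show the difference with hair removed.

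Between the PBS groups 0 of 10 members were called with edgeR, 0 had an unadjusted p under 0.05 (against 20.4% of all genes), and 0.0655% of all genes were called. DESeq2 called 0 members and 3.83% of all genes. Estimates were above 0 for 9 of 10 genes, up to 0.48 for Birc3 (interval -0.015 to 0.97), and that of Bcl3 was -0.27 (interval -1.07 to 0.54). Without mouse 136, which had hair gene levels like those of the WT PBS mice, Birc3 (0.71, adjusted p = 0.00684) and Nfkbie (0.70, adjusted p = 0.0335) were called, among 36.7% of all genes. Without both libraries Relb was called as well (0.56, adjusted p = 0.0398), among 40.9% of all genes. Mice 137 and 139 thus had more Birc3 (31.7 and 27.6 CPM) than any WT PBS mouse (at most 19.0 CPM), with mouse 136 (16.2 CPM) below them all.

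Between the bleomycin groups 0 of 10 members were called with edgeR, with 0.0928% of all genes, and 1 had an unadjusted p under 0.05, against 16.6% of all genes. That gene was Nfkbie, lower in KO BLM than in WT BLM skin without overlap (-0.69, interval -1.28 to -0.10; edgeR adjusted p = 0.271). It was 1 member of 10 without overlap downward, against 12.9% of all genes. Summed hair genes did not overlap between the bleomycin groups either, at 3932 to 39922 CPM in KO BLM and 128 to 920 in WT BLM mice. Their median log2 fold change was 5.63, against -0.027 over all genes, with 29 of 29 above 0 and 0 called. Genotype and hair growth thus cannot be told apart between the bleomycin groups. DESeq2 called 0 members and 3.34% of all genes, and without both libraries 0 members and 4.36% of all genes were called. The other estimates ran from -0.35 (Nfkbiz) to 0.19 (Nfkbia). Differences of over 1 log2 unit lie outside the intervals of all members but Nfkbie. The interval was -0.36 to 0.23 for Rela and -0.51 to 0.13 for Nfkb1.

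Per kilobase of exon, which allows levels to be compared between genes, Nfkbia led in every group, with 44.3 ± 9.09 CPM per kb in WT PBS and 64.6 ± 17.2 in KO BLM skin (SD, n = 3). Rela followed with 24.2 ± 0.552 CPM per kb in WT PBS and 30.9 ± 5.61 in WT BLM skin. Nfkbie was the lowest of the 10 in WT PBS skin, at 2.15 ± 0.193 CPM per kb, and the 8th in WT BLM skin, at 7.23 ± 1.696, within the spread of Birc3 at 7.04 ± 0.527. Bcl3 moved from the 7th place in WT PBS skin (3.91 ± 0.410 CPM per kb) to the 4th in WT BLM skin (12.7 ± 5.41), within the spread of Nfkb1 (12.1 ± 1.62). With all exons counted, Nfkb2 (8.62 ± 1.03) and Nfkb1 (8.22 ± 0.0942) did not differ beyond their spread in WT PBS skin. Nor did Relb (4.03 ± 0.563), Bcl3 and Birc3 (3.61 ± 0.161). Tnfaip3 stayed low in all 4 groups, at 3.07 ± 0.534 to 3.89 ± 1.54 CPM per kb. Several places depend on the length used. The union of the exons of Nfkb1 (12061 bases) is far longer than its longest transcript (4149 bases), and per kilobase of the longest transcript Nfkb1 was the 2nd in WT BLM skin, Bcl3 the 5th and Nfkbie the 9th, with Birc3 (12.1 CPM per kb) above Nfkbie (7.32 CPM per kb). In WT PBS skin Nfkb1 was then at 23.9 and Nfkb2 at 10.3 CPM per kb, and Relb, Bcl3 and Birc3 at 4.79, 5.23 and 6.22. Nfkbia led in all 4 groups with either length.

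Over the 12 libraries the members varied together. All 45 of 45 pairs had a correlation of log2 CPM above 0, with a median r of 0.75, and after the group means were taken out the median was 0.56. The closest pair was Nfkb2 and Nfkbie (r = 0.97), and the pair of lowest correlation was Rela and Nfkbia (r = 0.44). These libraries share groups, hair growth and cell makeup, so the values describe them and are no test. Relb (r = 0.98) and Nfkb2 (r = 0.97) were the members closest to the mean profile of the 10 genes. That mean contains each member itself, which raises the r of members but not that of genes outside the list. Mouse 147 of the WT BLM group was the highest of all 12 mice for 7 members, and its mean was 1.34 SD above the average of the libraries. Of the genes outside the list, those most like this profile were Amz1, Trafd1, Cxcl16, AU020206 and Trbc1, each with r = 0.97 over 12 libraries. Cxcl16 encodes a chemokine and scavenger receptor, Trafd1 a negative regulator of innate signalling, and Trbc1 a constant part of the T cell receptor.

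**Figure D3:**
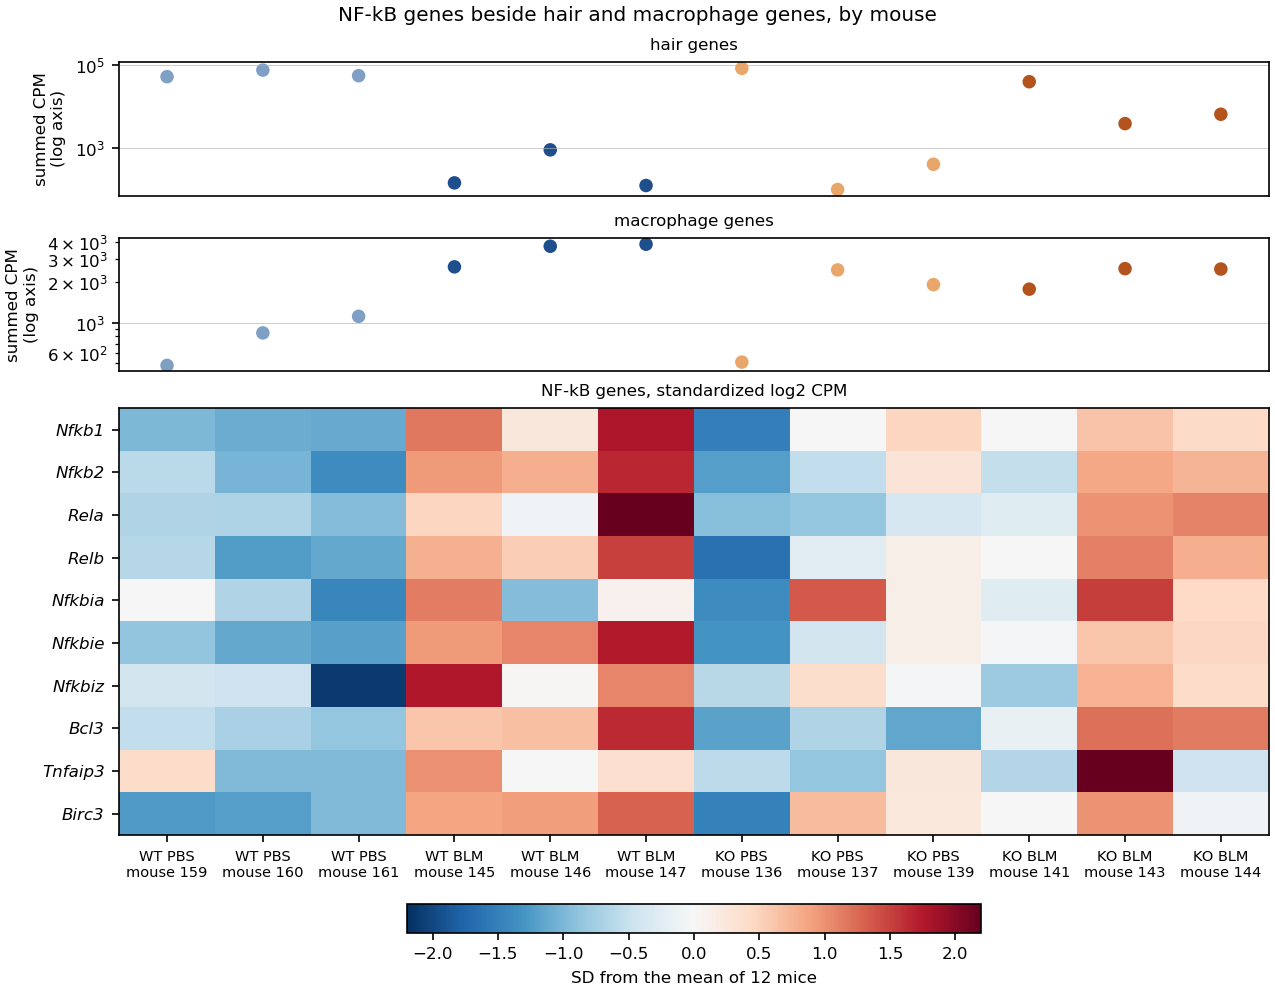
Summed CPM of the hair and macrophage genes (log axes, 1 point per mouse) above the standardized log2 CPM of the 10 genes (SD from the mean of 12 mice) in the same mice. The WT PBS mice and KO PBS mouse 136 are low for most of the 10 genes, high for hair genes and low for macrophage genes, and WT BLM mouse 147 is the highest for 7 members.

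Other genes of the pathway were followed in lists of receptors, adaptors and kinases, remaining subunit and IkB genes, negative regulators and inflammatory targets, 84 of whose 86 genes were tested. In WT skin 43 of the 84 were called higher and 2 lower after bleomycin, against 34% of all genes called, 19.8% upward. Their median log2 fold change was 0.74, against 0.018 over all genes. In the other 4 comparisons 0 of the 84 were called with edgeR, and their median in KO skin was 0.24. The numbers at an unadjusted p under 0.05 in KO skin were 4 of 15 receptors, 4 of 22 adaptors and kinases, 3 of 4 remaining subunit and IkB genes, 3 of 13 negative regulators and 17 of 30 inflammatory targets, against 20% of all genes.

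Of the receptors 9 of 15 were called higher in WT skin and 1 lower, with a median of 1.41. Tlr2, a Toll-like receptor for bacterial lipoproteins, went from 4.96 ± 0.710 CPM in WT PBS to 35.6 ± 9.16 in WT BLM skin (SD, n = 3), which was 2.84 on the log2 scale (edgeR adjusted p = 0.00314). Tnfrsf1b, which encodes TNF receptor 2, went from 20.7 ± 4.40 to 90.5 ± 17.8 CPM (2.13; edgeR adjusted p = 0.0041). Tlr9, a sensor of DNA, rose by 2.69 and Cd40, a receptor of the slower route, rose by 2.45, and the 4 values in KO skin were 1.15, 0.84, 0.31 and 1.05 in the same order, none past the threshold. Tnfrsf13c, the BAFF receptor gene, was the gene called lower (-3.10; edgeR adjusted p = 0.0161), from 4.998 ± 1.53 to 0.586 ± 0.327 CPM, and is named after its value was seen.

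The adaptors and kinases moved least as a list, with a median of 0.098 in WT skin, 6 of 22 higher and 1 lower, against 34% of all genes called. Map3k14, the gene of NIK, went from 15.04 ± 2.002 to 35.5 ± 3.26 CPM (1.24; edgeR adjusted p = 0.00939), and Irak2 and Irak4, kinases of the Toll-like and IL-1 receptor complex, rose by 1.11 and 0.76. The gene called lower was Tab3, a binding partner of the kinase TAK1 (-0.67; edgeR adjusted p = 0.0291), also named after its value was seen. In KO skin Map3k14 went from 18.6 ± 6.76 to 24.3 ± 4.31 CPM, a difference of 0.39 that did not pass (edgeR adjusted p = 0.411).

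Of the remaining subunit and IkB genes Nfkbid, a nuclear IkB gene, rose in WT skin (1.14; edgeR adjusted p = 0.0259) and had a similar estimate in KO skin (1.13; edgeR adjusted p = 0.137). Rel, the fifth subunit gene of the family, was at 26.3 ± 2.33 CPM in WT PBS and 35.1 ± 3.70 in WT BLM skin (0.42; edgeR adjusted p = 0.0513), and at 28.5 ± 3.999 and 29.3 ± 3.76 CPM in the KO groups. Nfkbil1 and Nfkbib had estimates of 0.46 and 0.088 in WT skin that did not pass.

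Of the 13 other negative regulators 8 were called higher in WT skin and 0 lower, with a median of 0.45. Peli1 had an estimate of -0.44 that did not pass (edgeR adjusted p = 0.0792), and is named after its value was seen. Tnip3, which encodes a partner of A20, went from 1.06 ± 0.302 to 9.09 ± 1.64 CPM (3.09; edgeR adjusted p = 0.00463), while Tnfaip3 itself did not pass. Trafd1 rose by 0.79, Tnip2, another partner of A20, by 0.87 and Zc3h12a, the RNase regnase-1 that degrades inflammatory mRNAs, by 1.14, with KO estimates of 0.20, -0.017 and 0.88, none past the threshold.

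Of the 30 inflammatory targets tested 19 were called higher in WT skin and 0 lower, with a median of 1.42. In KO skin the median was 1.25 with 0 called. Bcl2l1 had a WT estimate of -0.39 that did not pass (edgeR adjusted p = 0.0904), and is named after its value was seen. Vcam1, an adhesion molecule of activated endothelium, went from 4.69 ± 0.337 to 47.5 ± 1.19 CPM in WT skin (3.34; edgeR adjusted p = 0.00215) and from 8.36 ± 3.56 to 26.7 ± 6.68 CPM in KO skin (1.67; edgeR adjusted p = 0.0541). Ccl2 and Ccl5, chemokines for monocytes and T cells, rose by 2.84 and 3.86 in WT skin, with KO estimates of 1.94 and 2.32. Mmp9, a matrix protease of neutrophils and macrophages, was variable in the treated mice, at 101.6 ± 66.4 CPM in WT BLM against 5.90 ± 1.51 in WT PBS skin (4.10; edgeR adjusted p = 0.00917). In KO skin Mmp9 went from 16.7 ± 9.14 to 80.2 ± 63.5 CPM, an estimate of 2.26 that did not pass (edgeR adjusted p = 0.169).

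**Figure D4:**
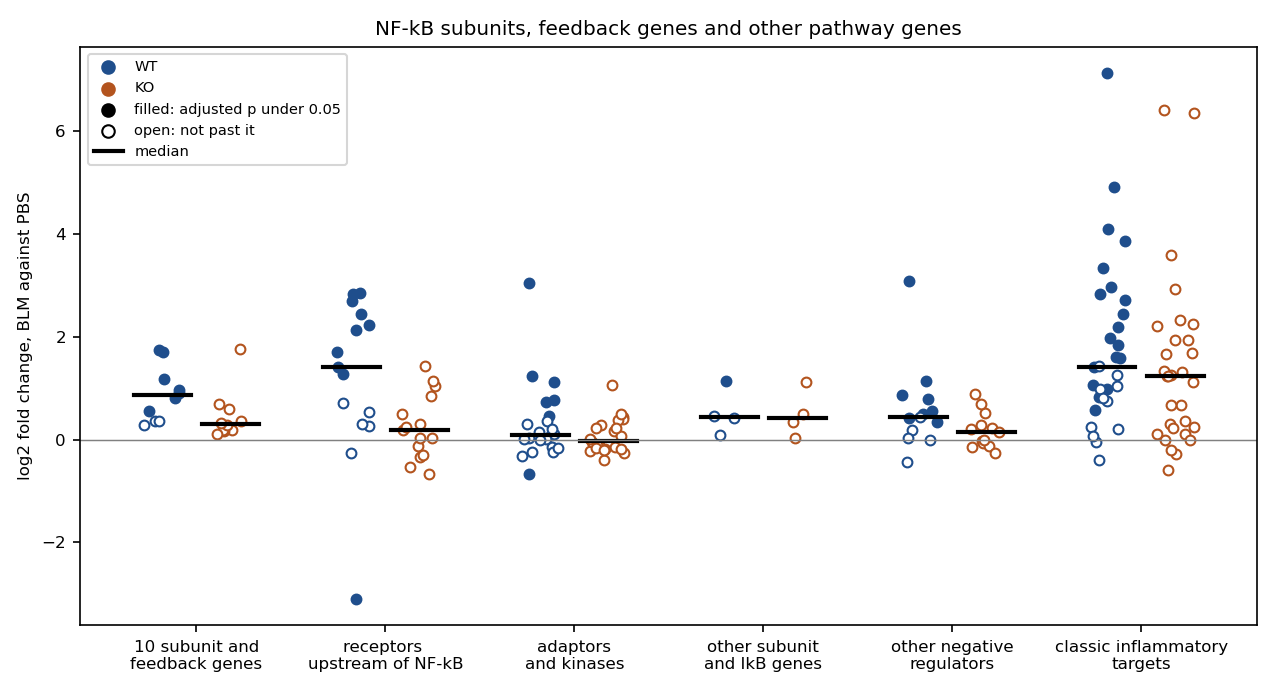
Log2 fold changes of bleomycin against PBS for the 10 genes and 5 lists of other pathway genes (1 point per gene, WT left and KO right in each pair, filled where the edgeR adjusted p passed, bars at medians). Filled points are present in WT skin for every list and absent in KO skin, and the medians of WT and KO skin are 1.42 and 1.25 for the inflammatory targets and 0.86 and 0.30 for the 10 genes.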

How the data were processed

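RNA was taken from whole skin, and the authors prepared stranded mRNA libraries, sequenced read pairs and deposited read counts per gene symbol in 12 columns, without normalization. The submitters' processing notes name the genome build GRCm38.p6 and MultiQC 1.7. The aligner, the counter and the use of strand are not given in the sources used here. The authors tested with DESeq2.

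The deposited counts were filtered with filterByExpr (minimum count 10, total 15), scaled by TMM (factors 0.933 to 1.052) and fitted in edgeR 4.0.16 (R 4.3.3) with a quasi-likelihood model of 4 group means. The 5 contrasts were bleomycin against PBS in each genotype, KO against WT within each treatment, and the genotype difference of the bleomycin response. P-values were adjusted by Benjamini-Hochberg over all 18311 genes and called under 0.05. The common dispersion of 0.122 is a biological coefficient of variation of 34.9%. Log2 CPM used a prior count of 2. Counting intervals are not given. The study's methods state that control mice were littermates, but the labels do not say which mice shared a litter, and litter was not in the model. The p-values set the differences between groups against the spread between these mice. For a single value an exact permutation test of 3 against 3 mice cannot give a two-sided p below 0.1. The steps were tested on simulated data. Positions and exon lengths came from GENCODE M21 (GRCm38), and promoter sequences from RefSeq (GRCm38.p6).

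The members and lists were chosen with earlier results of these data known. Named are all members, up to 4 genes of each other pathway list with the smallest p in WT skin and any called in another comparison, the 5 genes most like the members' mean profile, and Thy1. A gene that this rule also selects is not reported here. Alternatives were DESeq2 1.42.0, RLE and upper-quartile scaling, no filter, a mean of at least 1 CPM, only the 2 groups compared, the hair genes as a covariate, each mouse left out, and both KO libraries high in hair genes left out. Plots used matplotlib 3.10.9.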

Additional observations from a re-analysis of the deposited data

How the results depend on the processing

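The count of 7 members called in WT skin stayed within 6 to 8 under DESeq2, RLE and upper-quartile scaling, no filter, a mean of at least 1 CPM, only the 2 groups compared, and without both KO libraries high in hair genes. It was 0 with the hair genes as a covariate and ran from 2 to 8 when each mouse was left out (4, 2 and 4 without WT PBS mouse 159, 160 and 161). The shares of all genes called in WT skin in the fits without 1 mouse are not given here. In KO skin the count was 1 (Bcl3) with DESeq2, with no filter and without both libraries, 3 with the hair covariate, and 0 to 1 when each mouse was left out. Between the PBS groups it was 3 without both libraries and 0 to 2 when each mouse was left out, and for the difference of the responses it was 1 with DESeq2, 2 without both libraries and 0 to 3 when each mouse was left out, with the highest counts without mouse 136. Between the bleomycin groups it was 0 in every alternative. Why these calls changed was not tested; the fits without a mouse rest on fewer samples. Over all genes, the 56 calls in KO skin became 1212 with DESeq2, 34 with upper-quartile scaling, 176 with no filter, 0 with only the 2 groups compared, 1728 with the hair covariate and 4164 without both libraries. The 12 calls between the PBS groups became 755, 2 and 7648 with DESeq2, only 2 groups and without both libraries, the 17 between the bleomycin groups became 614, 6, 31 and 815 with DESeq2, only 2 groups, the hair covariate and without both, and the 0 for the difference became 3279, 20 and 7218 with DESeq2, no filter and without both. RLE and upper-quartile scaling moved the median of all genes by at most 0.049 log2 units.

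The log2 fold changes that turned sign were of uncalled genes. With the hair covariate these were, in WT skin, Nfkbia (-0.71); between the PBS groups Nfkb1 (-0.086), Nfkb2 (-0.098), Rela (-0.10), Relb (-0.35), Nfkbia (-0.41), Nfkbie (-0.087), Nfkbiz (-0.025), Tnfaip3 (-0.15) and Birc3 (-0.075); between the bleomycin groups Nfkb1 (0.078), Rela (0.047), Relb (0.40), Nfkbiz (0.0045), Bcl3 (0.23) and Birc3 (0.16); and for the difference of the responses Nfkb1 (0.16), Nfkb2 (0.086), Rela (0.15), Relb (0.75), Nfkbia (1.27), Nfkbiz (0.029) and Birc3 (0.24). Without both libraries Rela (0.020) and Bcl3 (0.12) did so between the bleomycin groups. When each mouse was left out, the values ran in KO skin from -0.061 to 0.50 for Nfkbia, -0.035 to 0.27 for Nfkbiz, -0.057 to 0.48 for Tnfaip3 and -0.059 to 0.38 for Birc3. Between the PBS groups they ran from -0.026 to 0.051 for Rela and -0.074 to 0.21 for Tnfaip3. Between the bleomycin groups they ran from -0.16 to 0.092 for Rela, -0.33 to 0.025 for Relb, -0.035 to 0.44 for Nfkbia, -0.41 to 0.21 for Bcl3 and -0.31 to 0.26 for Tnfaip3. For the difference of the responses they ran from -0.18 to 0.081 for Rela, -0.41 to 0.14 for Nfkbia, -0.14 to 0.47 for Bcl3 and -0.34 to 0.20 for Tnfaip3. No paired analysis was possible because every mouse has its own number and no number is shared between groups.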
